A study of Mus musculus with 9 samples.

Results

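Perforin and the granzymes are the killing proteins of cytotoxic granules. Perforin, encoded by Prf1, makes pores in the membrane of a target cell, and the granzymes are serine proteases that enter through them and cleave proteins inside the target. The genes were taken by name as Gzma, Gzmb, Gzmc, Gzmd, Gzme, Gzmf, Gzmg, Gzmk, Gzmm and Prf1, and these 10 were among 19938 genes tested. Each of the 10 was read by 1 row of the array (a transcript cluster) that carried no other symbol, and none of the 1621 rows with several symbols named a granzyme or perforin.

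RNA came from innate lymphocytes of the small-intestinal epithelium of NOD-SCID mice, 8 to 10 weeks old, a strain without mature T and B cells. The cells were CD3- CD45+ and were sorted to over 98% purity by Ly49E, an NK cell receptor encoded by Klra5, and by CD8aa, a homodimer of the CD8 alpha chain that marks many intraepithelial lymphocytes. Populations carrying both markers (Ly49E+CD8aa+), the first alone (Ly49E+CD8aa-) or CD8aa alone (Ly49E-CD8aa+) were each measured on 3 Affymetrix Mouse Gene 1.0 ST arrays, called biological replicates in the labels, and the labels give no treatment. How many mice gave the RNA of an array was not stated in the labels used here, so the p-values measure the spread between these arrays. Values are log2 expression after RMA, in which 1 unit is a doubling. They describe 1 gene across arrays and do not rank genes against each other. Differences are the log2 value of the first-named population minus that of the other. A difference over Ly49E is Ly49E+CD8aa+ minus Ly49E-CD8aa+, and a difference over CD8aa is Ly49E+CD8aa+ minus Ly49E+CD8aa-. A gene was called when its limma p, adjusted by Benjamini-Hochberg over all 19938 genes, was under 0.05.

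Intraepithelial lymphocytes are known to hold granzymes A and B at rest, in a state often described as poised for killing. In conventional cytotoxic cells perforin and granzyme B are induced by cytokines such as IL-2 and IL-15. In the mouse, granzymes B, C, D, E, F, G and N lie side by side on chromosome 14, granzymes A and K are neighbours on chromosome 13, and Gzmm and Prf1 lie apart on chromosome 10.

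Of the 10 genes, perforin alone was called, and it was lower in Ly49E+CD8aa- cells than in either CD8aa+ population (1.7% of all genes were called over CD8aa and 2.15% in Ly49E+CD8aa- against Ly49E-CD8aa+ cells). The transcripts of granzymes A, B, C and K read above the 75th percentile of all rows (7.51 to 7.59) on every array, as did Prf1, and none of these granzymes was called in any comparison. Gzmd and Gzmg read below the 25th percentile (4.40 to 4.47) on every array.

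**Figure D1:**
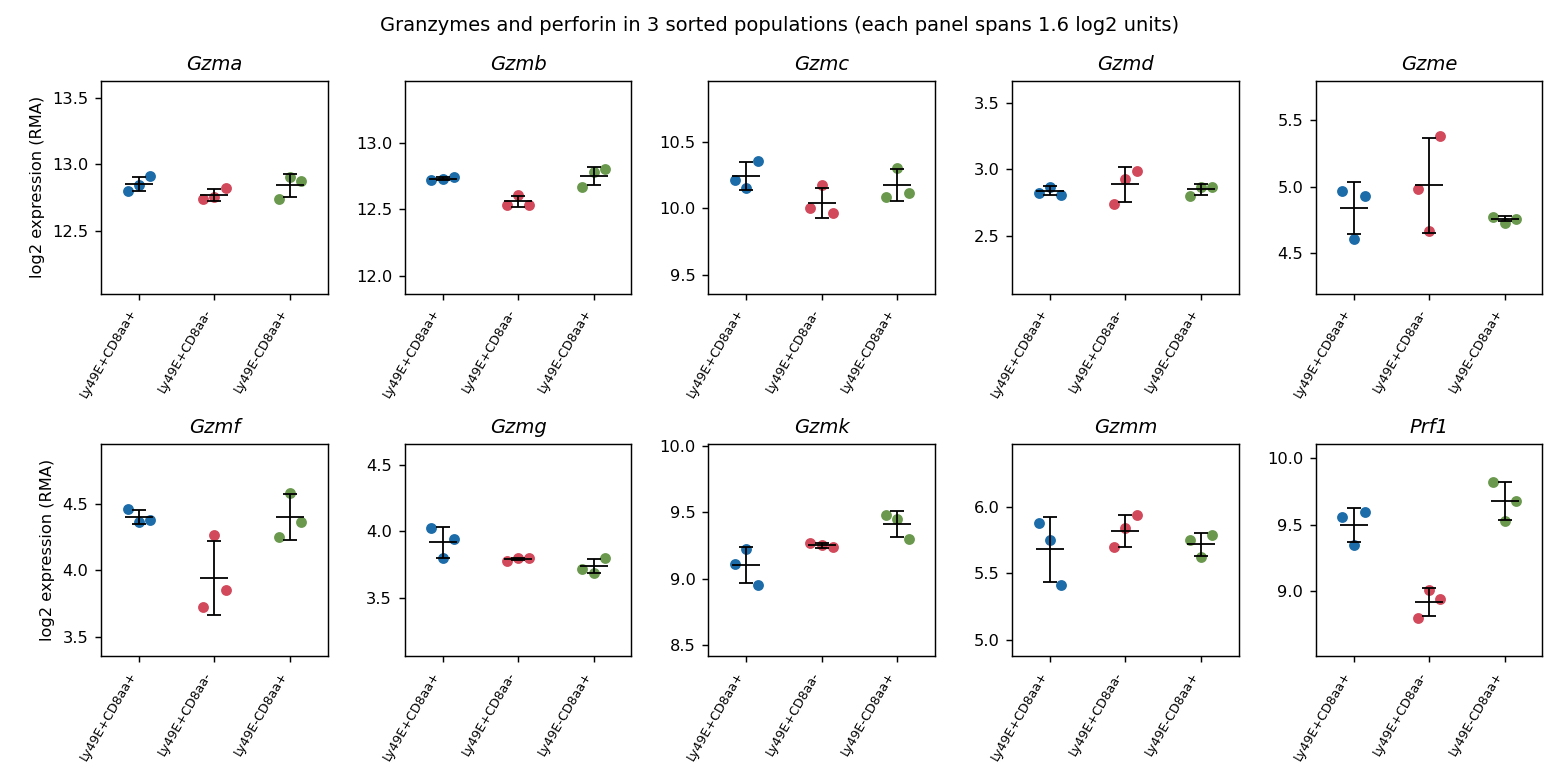
Log2 expression (RMA) of the 10 genes on every array, by population, with bars for the mean and SD (n = 3) and each panel spanning the same number of log2 units. The Prf1 arrays of Ly49E+CD8aa- cells, at 8.80 to 9.01, lie below all 6 others, while Gzma stays within 0.17 over the 9 arrays.

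Prf1 (transcript cluster 10363475) read 9.56, 9.35 and 9.60 in Ly49E+CD8aa+ cells and 9.82, 9.53 and 9.68 in Ly49E-CD8aa+ cells. In Ly49E+CD8aa- cells it read 8.80, 9.01 and 8.94. All 3 of these arrays were below all 6 arrays of the CD8aa+ populations, whose own ranges overlapped. The means were 9.50 ± 0.129, 9.68 ± 0.145 and 8.92 ± 0.108 (SD, n = 3) in that order.

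Perforin was higher in Ly49E+CD8aa+ cells than in Ly49E+CD8aa- cells by 0.58 (SE 0.100, 95% interval 0.36 to 0.81, limma adjusted p = 0.0197), a 1.50-fold difference with an interval of 1.28 to 1.75. It was lower in Ly49E+CD8aa- cells than in Ly49E-CD8aa+ cells, with a difference of -0.76 (SE 0.100, 95% interval -0.99 to -0.53, limma adjusted p = 0.00393), which is 1.69-fold. Between the CD8aa+ populations the difference was -0.17 (95% interval -0.40 to 0.05, limma adjusted p = 1). The F test over the 3 populations gave an adjusted p of 0.00787. The size of the perforin difference exceeded that of 97.8% of all genes in the comparison over CD8aa and of 98.4% in the comparison of Ly49E+CD8aa- with Ly49E-CD8aa+ cells. Both of these comparisons use the same 3 Ly49E+CD8aa- arrays.

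The perforin call against Ly49E+CD8aa+ cells was lost when Ly49E+CD8aa+ replicate 1 or 3 or Ly49E+CD8aa- replicate 1 or 3 was left out, with limma adjusted p of 0.0856, 0.0896, 0.0834 and 0.0703 in that order, while the difference stayed between 0.53 and 0.66. The call against Ly49E-CD8aa+ cells was kept without each of the 9 arrays in turn, with differences from -0.83 to -0.69. With bulk RNA, fewer perforin-expressing cells and less perforin RNA per cell cannot be told apart.

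Several NK cell genes differed along the same line as perforin, in the other direction. Of 8 NK cell and ILC1 markers, 5 (Ncr1, Klrk1, Klrd1, Klre1 and Eomes) were called higher in Ly49E+CD8aa- cells against each CD8aa+ population, and the mean of the 8 was 8.79 to 8.97 on the Ly49E+CD8aa- arrays, 6.29 to 6.38 on the Ly49E+CD8aa+ arrays and 6.19 to 6.41 on the Ly49E-CD8aa+ arrays. Ncr1, which encodes the NK receptor NKp46, was at 9.69 ± 0.0808 in Ly49E+CD8aa- cells and at 4.26 ± 0.437 and 4.40 ± 0.246 in Ly49E+CD8aa+ and Ly49E-CD8aa+ cells. Klrb1c and Tbx21 were also higher in Ly49E+CD8aa- cells, without a call. Itga1, the last of the 8, went in the direction of perforin and was not called. Its means were 10.52 ± 0.0831, 10.27 ± 0.0813 and 10.60 ± 0.119 in Ly49E+CD8aa+ cells, Ly49E+CD8aa- cells and Ly49E-CD8aa+ cells. The part of NK cells in the perforin values was not tested.

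The 250 bases before the start of Prf1 are shown because perforin is the member that was called. They are RefSeq sequence on build GRCm38.p6, chr10:61297586-61297835, plus strand, written 5′ to 3′. Capitals mark, from left to right, an ETS match (CTTCCT, the reverse complement of AGGAAG), a RUNX match (ACCACA, the reverse complement of TGTGGT), another ETS match and an E-box (CAGGTG).
Prf1: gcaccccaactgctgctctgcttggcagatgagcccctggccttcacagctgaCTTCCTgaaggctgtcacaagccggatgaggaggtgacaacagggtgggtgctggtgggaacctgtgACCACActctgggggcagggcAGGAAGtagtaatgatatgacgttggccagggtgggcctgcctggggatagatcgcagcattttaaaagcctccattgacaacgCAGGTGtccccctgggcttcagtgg

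Granzyme A (Gzma, transcript cluster 10412211), a protease of tryptase specificity, did not pass in any comparison. It read 12.80, 12.84 and 12.91 in Ly49E+CD8aa+ cells, 12.74, 12.75 and 12.82 in Ly49E+CD8aa- cells, and 12.74, 12.90 and 12.87 in Ly49E-CD8aa+ cells. The arrays of all 3 populations overlapped. The difference was 0.01 (95% interval -0.14 to 0.16) between Ly49E+CD8aa+ and Ly49E-CD8aa+ cells and 0.08 (-0.07 to 0.23) over CD8aa. The interval over CD8aa allows a ratio from 0.95 to 1.17. The brightest row of any array read 13.84, and whether rows as bright as those of Gzma and Gzmb compress real differences was not tested.

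Granzyme K (Gzmk, transcript cluster 10412218), also a tryptase and the neighbour of Gzma, followed another order. It read 9.11, 9.22 and 8.95 in Ly49E+CD8aa+ cells, 9.27, 9.25 and 9.24 in Ly49E+CD8aa- cells, and 9.48, 9.45 and 9.30 in Ly49E-CD8aa+ cells. The arrays did not overlap between any pair of populations. Taken singly, such a gap was found in 6.25% of all genes over Ly49E and in 12.9% over CD8aa. It was found in 12.7% in Ly49E+CD8aa- against Ly49E-CD8aa+ cells, and the share of genes with all of these gaps was not counted. Gzmk read lowest in Ly49E+CD8aa+ cells and highest in Ly49E-CD8aa+ cells. The difference between those was -0.31 (SE 0.083, 95% interval -0.50 to -0.13, limma adjusted p = 0.831), and the F test gave an adjusted p of 0.299. Gzmk thus did not pass over all genes in any comparison.

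Granzyme B (Gzmb, transcript cluster 10420308), the aspartate-directed protease that activates caspases, read 12.72, 12.73 and 12.74 in Ly49E+CD8aa+ cells and 12.67, 12.78 and 12.80 in Ly49E-CD8aa+ cells. In Ly49E+CD8aa- cells it read 12.53, 12.61 and 12.53. These 3 arrays were below the other 6, as for Prf1. Arrays did not overlap in 12.9% of all genes over CD8aa and in 12.7% in Ly49E+CD8aa- against Ly49E-CD8aa+ cells. The difference between Ly49E+CD8aa+ and Ly49E+CD8aa- cells was 0.17 (SE 0.0616, 95% interval 0.03 to 0.31, limma adjusted p = 0.372), a ratio of 1.13. That between Ly49E+CD8aa- and Ly49E-CD8aa+ cells was -0.19 (95% interval -0.33 to -0.05, limma adjusted p = 0.255). Neither passed, and the interval over CD8aa allows a ratio of up to 1.24. Whether granzyme B differed less than perforin was not tested.

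Gzmb is shown beside Prf1 because its Ly49E+CD8aa- arrays were also below all arrays of the other populations, and Gzma because its arrays overlapped. Neither gene was called. The mean of Gzma was also lowest in Ly49E+CD8aa- cells, at 12.77 against 12.85 in Ly49E+CD8aa+ and 12.84 in Ly49E-CD8aa+ cells. The windows are the 250 bases before each start, RefSeq, GRCm38.p6, minus strand, at chr14:56262335-56262584 for Gzmb and chr13:113100982-113101231 for Gzma. Capitals in Gzmb mark a RUNX match, an AP-1 match (TGAGTCA) and another RUNX match. Capitals in Gzma mark an E-box, an NFAT match (TTTTCC, the reverse complement of GGAAAA), another E-box as CACCTG, and a RUNX match as ACCACA.
Gzmb: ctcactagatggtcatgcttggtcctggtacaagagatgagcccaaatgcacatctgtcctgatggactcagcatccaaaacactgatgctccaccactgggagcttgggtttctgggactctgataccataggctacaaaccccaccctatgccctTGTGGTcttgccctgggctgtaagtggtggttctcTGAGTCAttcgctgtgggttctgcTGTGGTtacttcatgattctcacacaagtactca
Gzma: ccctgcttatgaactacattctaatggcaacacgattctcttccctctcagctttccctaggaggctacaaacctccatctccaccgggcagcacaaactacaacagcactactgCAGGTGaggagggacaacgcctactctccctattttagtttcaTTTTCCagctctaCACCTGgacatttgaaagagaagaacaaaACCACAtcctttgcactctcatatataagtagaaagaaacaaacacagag

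Granzymes C to G are proteases of rodents, known from activated T and NK cells, whose targets are little known. Gzmc (transcript cluster 10420302) read 10.21, 10.15 and 10.35 in Ly49E+CD8aa+ cells, 10.00, 10.17 and 9.96 in Ly49E+CD8aa- cells, and 10.08, 10.30 and 10.11 in Ly49E-CD8aa+ cells. Its groups overlapped, and the difference over CD8aa was 0.19 (95% interval -0.01 to 0.40, limma adjusted p = 0.575). Gzmf (transcript cluster 10420295) read 4.46, 4.36 and 4.38 in Ly49E+CD8aa+ cells, 3.72, 4.26 and 3.85 in Ly49E+CD8aa- cells, and 4.25, 4.58 and 4.36 in Ly49E-CD8aa+ cells. After Prf1 it had the largest difference among the members over CD8aa, 0.46 (SE 0.138, 95% interval 0.14 to 0.77, limma adjusted p = 0.236).

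Gzmf passed in both comparisons only when Ly49E+CD8aa- replicate 2, its highest array in that group, was left out (0.61 with limma adjusted p = 0.0368, and -0.61 with 0.0334). Over the other alternatives that kept this dim row it did not pass.

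The remaining cluster members did not pass in any comparison. Gzme (10420268) read 4.97, 4.61 and 4.93 in Ly49E+CD8aa+ cells, 4.98, 4.67 and 5.38 in Ly49E+CD8aa- cells, and 4.77, 4.73 and 4.76 in Ly49E-CD8aa+ cells, so that its spread within Ly49E+CD8aa- (SD 0.355) was wider than any difference between populations. Gzmg (10420280) read 3.69 to 4.03 over the 9 arrays, with 0.19 between Ly49E+CD8aa+ and Ly49E-CD8aa+ cells (limma adjusted p = 1). Gzmd (10420274) read 2.74 to 2.99 on all arrays, with no difference larger than 0.05 in size.

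Granzymes C to G share much of the sequence before their starts. Over the windows before the start, the 10 pairs among these 5 genes were 71.5% to 94.8% identical, against 46.0% to 54.0% in the other 35 pairs of members. The transcripts of these genes are also close relatives, and cross-hybridisation between their probes was not tested. The stretch of 70 bases below, RefSeq, GRCm38.p6, minus strand of chromosome 14, is shown because the members differ in its marked octamer. Capitals mark TGACGTCA, the full CRE (cAMP response element) letters, or the 8 bases in its place. The blocks lie at chr14:56234667-56234736 (Gzmc), chr14:56132607-56132676 (Gzmd), chr14:56120640-56120709 (Gzme), chr14:56211442-56211511 (Gzmf) and chr14:56159609-56159678 (Gzmg).
Gzmc: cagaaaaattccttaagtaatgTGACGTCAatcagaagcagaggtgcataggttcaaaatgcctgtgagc
Gzmd: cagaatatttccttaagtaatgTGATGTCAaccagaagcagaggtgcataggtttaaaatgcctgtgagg
Gzme: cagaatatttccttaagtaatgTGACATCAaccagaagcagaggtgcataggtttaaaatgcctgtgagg
Gzmf: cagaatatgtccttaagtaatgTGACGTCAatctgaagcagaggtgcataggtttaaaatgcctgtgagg
Gzmg: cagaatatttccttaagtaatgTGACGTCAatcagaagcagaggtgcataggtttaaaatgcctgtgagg

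Counted from 1 at the left end of the block, with the base of Gzmc first, the octamer of Gzmd carries C26T and that of Gzme carries G27A. Outside the octamer, A6T, A8T, C55T and C70G were found in all 4 of the others, T32C in Gzmd and Gzme, and T9G and A34T in Gzmf. The full octamer was thus found in Gzmc, Gzmf and Gzmg. Neither these nor Gzmd and Gzme, which lack it, passed over all genes in a comparison, so the calls do not separate genes with and without it. The bases are those of the reference build, and the sequence of the mice used here was not read.

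Granzyme M (Gzmm, transcript cluster 10364460), a metase known from NK cells, read 5.88, 5.75 and 5.41 in Ly49E+CD8aa+ cells, 5.70, 5.84 and 5.94 in Ly49E+CD8aa- cells, and 5.75, 5.62 and 5.79 in Ly49E-CD8aa+ cells. All groups overlapped, and no difference exceeded 0.15 in size (limma adjusted p = 0.793 for that of -0.15 over CD8aa).

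**Figure D2:**
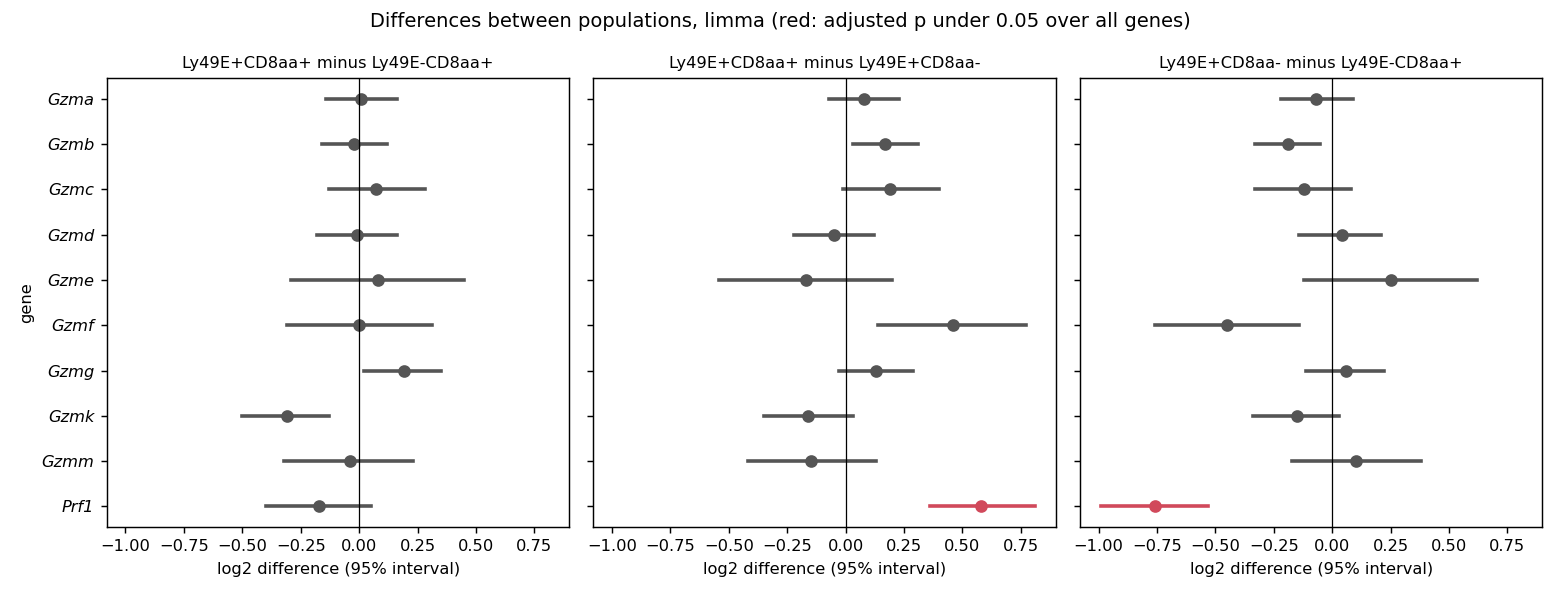
Log2 differences of the 10 genes in the 3 comparisons, with 95% intervals from limma and Prf1 in red where its adjusted p over all genes was under 0.05. Prf1 is at 0.58 in the middle panel and -0.76 in the right one, and all other intervals that leave 0 belong to genes that did not pass over all genes.

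Counted over the members, the comparison over Ly49E among CD8aa+ cells called 0 of 10 by limma (2 at an unadjusted p under 0.05, Gzmg and Gzmk), against 0.13% of all genes (4.18% unadjusted), and the arrays of 1 member, Gzmk, did not overlap, against 6.25% of all genes. The comparison over CD8aa among Ly49E+ cells called 1 of 10, Prf1, against 1.7% of all genes. There 3 members had an unadjusted p under 0.05 (Gzmb, Gzmf and Prf1), against 9.43%, and 4 did not overlap (these and Gzmk), against 12.9%. The comparison of Ly49E+CD8aa- with Ly49E-CD8aa+ cells called 1 of 10, Prf1, against 2.15%. There the same 3 had an unadjusted p under 0.05, against 10.4%, and 3 did not overlap (Gzmb, Gzmk and Prf1), against 12.7%. The F test called 1 of 10 against 2.03% of all genes.

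With so few members, 1 call is not told apart from these shares. The median difference of the 10 was -0.01, 0.10 and -0.09 in the 3 comparisons in the order above, beside -0.00049, 0.025 and -0.024 over all genes. By sign alone 5, 6 and 4 of the 10 were higher in the first-named population.

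Over the 9 arrays the readings of several members went together. The values are given as description, since differences between the populations enter them beside the spread within a population. Pearson r was 0.90 for Gzmb with Gzmf, 0.83 for Gzmb with Prf1, 0.83 for Gzmc with Gzmf and 0.76 for Gzmf with Prf1. It was 0.40 for Gzma with Prf1 and -0.85 for Gzmg with Gzmk. Gzmc and Gzmf are among the close relatives named above, and Gzmf read below the 25th percentile of rows on 8 arrays.

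Short motifs of factors known in cytotoxic cells were searched on both strands of the 250 bases before each start, in all 10 members and in 32851 RefSeq windows of the same length. The 8 motifs were chosen after the expression values were seen, and a match describes letters and no binding. RUNX letters (TGTGGT) were in 9 of 10 members, all but Gzmk, and in 14.0% of all windows. Runx3 is known to bind near cytotoxic genes, and its transcript was at 10.80 ± 0.176, 10.84 ± 0.264 and 10.86 ± 0.0468 in Ly49E+CD8aa+ cells, Ly49E+CD8aa- cells and Ly49E-CD8aa+ cells, with no call. Since granzymes C to G share a window, these matches are not independent of each other.

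ETS letters (AGGAAG) were in 7 members and 29.5% of windows, and E-box letters (CAGGTG) in Gzma and Prf1 and 17.2%. NFAT letters (GGAAAA) were in Gzma and Gzmm and 20.4%. CRE letters (TGACGTCA) were in Gzmc, Gzmf and Gzmg and 1.55%, and AP-1 letters (TGANTCA) in Gzmb and 6.75%. T-box letters (TCACACC) were in Gzmk and in the other of 2 windows of Gzmm, and in 3.33% of all, and STAT letters (TTCNNNGAA) in Gzmm and 7.02%. The ETS and NFAT motifs share GGAA, and T-box and RUNX letters can overlap by ACC, but no matches overlapped in the members.

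**Figure D3:**
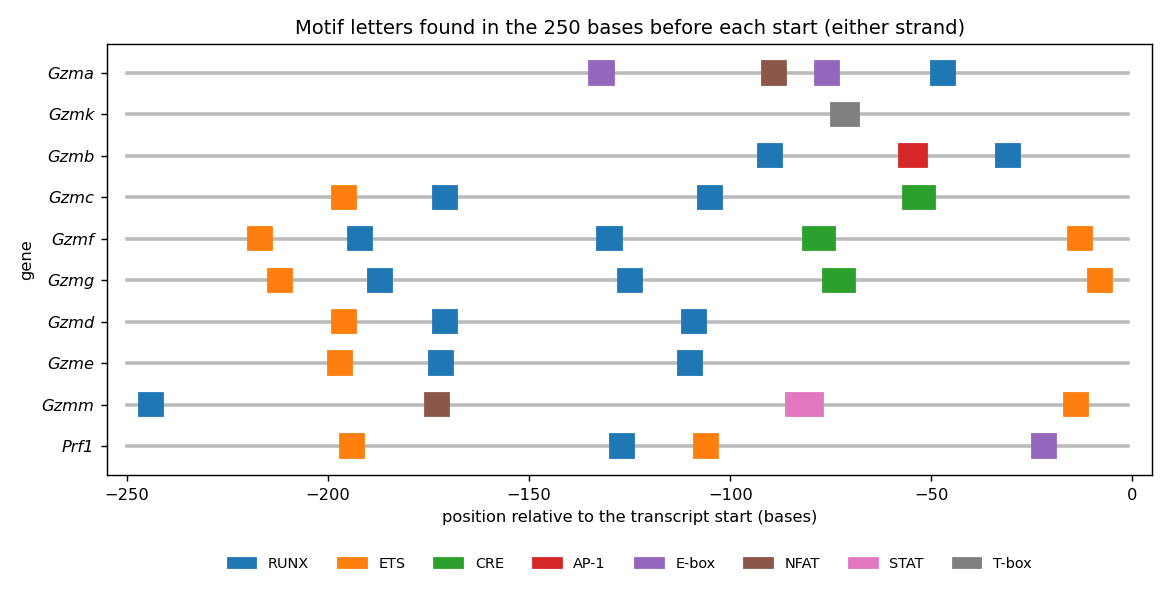
Positions of motif matches (coloured by motif, either strand) in the 250 bases before the start of each gene, in bases relative to the start, with the first of 2 windows for Gzmm. RUNX matches appear in 9 genes, and the matches of Gzmc, Gzmd, Gzme, Gzmf and Gzmg repeat with small shifts, the CRE match being found in 3 of these.

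The pathway around the members was read from lists of genes by role, with calls in each direction set beside all genes. Over CD8aa among Ly49E+ cells, the share of all genes called higher was 0.476% and that called lower 1.22%. In Ly49E+CD8aa- against Ly49E-CD8aa+ cells 1.35% were higher and 0.802% lower, and in Ly49E+CD8aa+ against Ly49E-CD8aa+ cells 0.0201% and 0.11%.

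Most genes of granule content and processing were not called. Of 14 tested, 1 was higher and 1 lower over CD8aa, 2 were lower in Ly49E+CD8aa- cells than in Ly49E-CD8aa+ cells, and 1 was lower in Ly49E+CD8aa+ cells than in Ly49E-CD8aa+ cells, with medians of 0.09, -0.11 and -0.02. In the same order 6, 6 and 4 of the 14 had an unadjusted limma p under 0.05, beside 9.43%, 10.4% and 4.18% of all genes. Srgn, the serglycin core protein that binds granzymes in the granule, was at 12.43 ± 0.074, 12.35 ± 0.0505 and 12.48 ± 0.113 in Ly49E+CD8aa+ cells, Ly49E+CD8aa- cells and Ly49E-CD8aa+ cells and was not called. Ctsc, the cathepsin C that removes the propeptide of granzymes, was at 10.40 ± 0.102, 10.13 ± 0.0544 and 10.41 ± 0.111 and was not called (limma adjusted p = 0.232 over CD8aa). Nkg7, a granule membrane protein, was at 12.82 ± 0.0541, 12.68 ± 0.0511 and 12.86 ± 0.0405 and was not called. Srgn, Ctsc and Nkg7 were picked from the list for their roles, after their values were seen.

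Among the called genes, Cd63, a tetraspanin of granule membranes, read 10.24, 10.38 and 10.41 in Ly49E+CD8aa+ cells, 9.87, 9.72 and 9.71 in Ly49E+CD8aa- cells and 9.97, 9.91 and 9.99 in Ly49E-CD8aa+ cells. It read highest with both markers, and was higher over CD8aa by 0.58 (SE 0.074, limma adjusted p = 0.00387). Its difference over Ly49E, 0.39, was not called (limma adjusted p = 0.213). Ctsh, the cathepsin H known to process granzyme B, had another order, at 4.94 ± 0.226 in Ly49E+CD8aa+ cells, 6.68 ± 0.181 in Ly49E+CD8aa- cells and 6.71 ± 0.487 in Ly49E-CD8aa+ cells. Its differences from Ly49E+CD8aa+ were -1.74 over CD8aa (adjusted p = 0.00393) and -1.77 over Ly49E (adjusted p = 0.0303). The call over Ly49E was lost without 7 of the 9 arrays in turn, among them each Ly49E+CD8aa+ array (adjusted p up to 0.171). It was also lost with the replicate number as a block (0.0795) and with the 6 arrays of the comparison alone (0.273). Cst7, cystatin F, an inhibitor of cathepsin C, was lower in Ly49E+CD8aa- cells than in Ly49E-CD8aa+ cells, -0.34 (adjusted p = 0.0386), and lost the call without 8 of the arrays in turn (adjusted p up to 0.12), with the replicate block (0.0651), after centring on medians (0.0907) and with the 6 arrays alone (0.114).

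Among genes of granule transport and fusion, Sytl2 and Stx7 were called. Of 24 tested, 1 was higher over CD8aa and 2 were lower in Ly49E+CD8aa- cells than in Ly49E-CD8aa+ cells. None was called over Ly49E by limma (1 at an unadjusted p under 0.05). Over CD8aa 3, and in Ly49E+CD8aa- against Ly49E-CD8aa+ cells 5, had an unadjusted limma p under 0.05. Sytl2, a synaptotagmin-like protein that binds Rab27a on granules, read 8.46, 8.59 and 8.58 in Ly49E+CD8aa+ cells, 7.99, 8.10 and 8.06 in Ly49E+CD8aa- cells, and 8.50, 8.61 and 8.71 in Ly49E-CD8aa+ cells. Arrays did not overlap in 12.9% of all genes over CD8aa and in 12.7% in Ly49E+CD8aa- against Ly49E-CD8aa+ cells. The Ly49E+CD8aa- arrays were below all 6 others for Prf1, Gzmb, Ctsc, Nkg7, Cst7 and Sytl3, among other genes, and also for Sytl2. The differences were 0.49 over CD8aa (SE 0.0751, limma adjusted p = 0.0100) and -0.55 against Ly49E-CD8aa+ (adjusted p = 0.00467), and the call over CD8aa was lost without Ly49E+CD8aa+ replicate 2 or 3 (adjusted p up to 0.0532).

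Stx7, a SNARE of late endosomes, was lower in Ly49E+CD8aa- cells than in Ly49E-CD8aa+ cells by -0.45 (limma adjusted p = 0.0219), a call lost without each of the 6 arrays compared (adjusted p up to 0.0836). The genes of inherited defects of granule release were not called. Rab27a was at 8.64 ± 0.0762, 8.78 ± 0.0366 and 8.50 ± 0.208, Unc13d at 7.30 ± 0.288, 7.21 ± 0.0977 and 7.34 ± 0.186, and Stxbp2 at 9.38 ± 0.083, 9.38 ± 0.0465 and 9.38 ± 0.168 in Ly49E+CD8aa+ cells, Ly49E+CD8aa- cells and Ly49E-CD8aa+ cells.

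The inhibitors that guard cells against their own granzymes are serpins. Of 11 tested, 1 was higher and 1 lower over CD8aa, and the same 2 were called in the opposite direction in Ly49E+CD8aa- against Ly49E-CD8aa+ cells. Serpinb9, the inhibitor of granzyme B, was at 8.21 ± 0.0485, 8.31 ± 0.144 and 8.32 ± 0.293 in Ly49E+CD8aa+ cells, Ly49E+CD8aa- cells and Ly49E-CD8aa+ cells and was not called. Serpinb1a, an inhibitor of neutrophil-type elastases and chymases, read 6.17, 5.08 and 5.58 in Ly49E+CD8aa+ cells, 9.05, 8.73 and 8.62 in Ly49E+CD8aa- cells, and 6.21, 5.10 and 5.13 in Ly49E-CD8aa+ cells. It was thus high in Ly49E+CD8aa- cells alone, with differences of -3.19 (SE 0.335, limma adjusted p = 0.0012) over CD8aa and 3.32 (adjusted p = 0.000732) against Ly49E-CD8aa+.

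Serpinb6a was lower in Ly49E+CD8aa- cells, at 8.30 ± 0.300 against 9.07 ± 0.196 and 9.04 ± 0.0922, with 0.77 over CD8aa (limma adjusted p = 0.0401) and -0.73 against Ly49E-CD8aa+ cells (0.0435). Each of these calls was lost without 7 of the arrays in turn (adjusted p up to 0.157 and 0.15), and both with array weights. Both were also lost with the 6 arrays of each comparison alone (0.16 and 0.116), and the second after centring on medians (0.0544).

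The other route of killing is through death ligands. Of 8 such ligands and receptors, 2 were called lower over CD8aa and higher in Ly49E+CD8aa- cells than in Ly49E-CD8aa+ cells, Tnf and Ltb, which encode tumour necrosis factor and lymphotoxin beta. In these comparisons 5 and 4 of the 8 had an unadjusted limma p under 0.05. Tnf was at 9.21 ± 0.370 in Ly49E+CD8aa- cells, 5.96 ± 0.218 in Ly49E+CD8aa+ cells and 6.09 ± 0.415 in Ly49E-CD8aa+ cells. Ltb was at 9.74 ± 0.0915, 7.87 ± 0.130 and 7.67 ± 0.0953 in the same order. Fasl, the Fas ligand, was at 11.12 ± 0.0895, 11.00 ± 0.0234 and 11.07 ± 0.0306 in Ly49E+CD8aa+ cells, Ly49E+CD8aa- cells and Ly49E-CD8aa+ cells and was not called. Tnfsf10, which encodes TRAIL, was at 10.01 ± 0.0258, 9.77 ± 0.0616 and 9.95 ± 0.0184 (limma adjusted p = 0.0955 over CD8aa).

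Of 10 known granzyme substrates tested, Parp1, a DNA repair enzyme, was the 1 called. It was lower over CD8aa by -0.70 (limma adjusted p = 0.00412) and higher in Ly49E+CD8aa- cells than in Ly49E-CD8aa+ cells by 0.69 (0.00378).

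Transcription factors of cytotoxic lymphocytes split in direction. Of 19 tested, 1 was higher and 2 lower over CD8aa, and 1 was higher and 1 lower in Ly49E+CD8aa- cells than in Ly49E-CD8aa+ cells. In these comparisons 11 and 9 of the 19 had an unadjusted limma p under 0.05, beside 9.43% and 10.4% of all genes. Eomes, the T-box factor known to drive perforin in T and NK cells, read 4.30, 4.53 and 4.12 in Ly49E+CD8aa+ cells, 6.57, 7.48 and 7.40 in Ly49E+CD8aa- cells, and 4.66, 4.35 and 4.73 in Ly49E-CD8aa+ cells. It was therefore high where Prf1 was low, with differences of -2.83 over CD8aa (SE 0.228, limma adjusted p = 0.0002) and 2.57 against Ly49E-CD8aa+ (0.000319). Tbx21, which encodes T-bet, was at 8.64 ± 0.0549, 8.96 ± 0.113 and 8.76 ± 0.066 in Ly49E+CD8aa+ cells, Ly49E+CD8aa- cells and Ly49E-CD8aa+ cells (adjusted p = 0.0871 over CD8aa).

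Prdm1, which encodes Blimp-1, a repressor known from terminal effector cells, went with perforin. It was at 9.73 ± 0.104 in Ly49E+CD8aa+ cells, 9.22 ± 0.105 in Ly49E+CD8aa- cells and 9.75 ± 0.06 in Ly49E-CD8aa+ cells. The differences were 0.51 over CD8aa (limma adjusted p = 0.0121) and -0.53 against Ly49E-CD8aa+ (0.00935). The call over CD8aa was lost without Ly49E+CD8aa+ replicate 2 or Ly49E+CD8aa- replicate 2 or 3 (adjusted p up to 0.0598) and with the 6 arrays of the comparison alone. Irf4 was lower over CD8aa by -0.69 (adjusted p = 0.0140). This call was lost without 3 arrays in turn (replicates 2 and 3 with both markers and Ly49E+CD8aa- replicate 3, adjusted p up to 0.0704). It was also lost with the 6 arrays of the comparison alone (0.0866).

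Receptors of the cytokines that drive granzymes and perforin held the largest differences of these lists. Of 9 tested, 1 was higher and 4 lower over CD8aa, and 4 were higher and 1 lower in Ly49E+CD8aa- cells than in Ly49E-CD8aa+ cells. Il18r1 and Il18rap, the chains of the IL-18 receptor, were higher in Ly49E+CD8aa- cells by 5.12 and 2.78 against Ly49E-CD8aa+, Il2ra, the IL-2 receptor alpha chain, by 3.50, and Il7r by 3.92. Il2rb, the beta chain shared by IL-2 and IL-15 receptors, went with perforin, at 12.60 ± 0.0643, 12.20 ± 0.0904 and 12.56 ± 0.0618 in Ly49E+CD8aa+ cells, Ly49E+CD8aa- cells and Ly49E-CD8aa+ cells. Its differences were 0.40 over CD8aa (limma adjusted p = 0.0248) and -0.36 against Ly49E-CD8aa+ cells (0.0344). These calls were lost without 5 and 8 of the arrays in turn (adjusted p up to 0.107 and 0.127). Both were also lost with the 6 arrays of each comparison alone (0.0694 and 0.0904), and the second after centring on medians (0.0638). Il7r was also lower over Ly49E by -1.52 (limma adjusted p = 0.0303). That call was lost without 8 arrays in turn (adjusted p up to 0.162) and with the 6 arrays of the comparison alone (0.215).

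**Figure D4:**
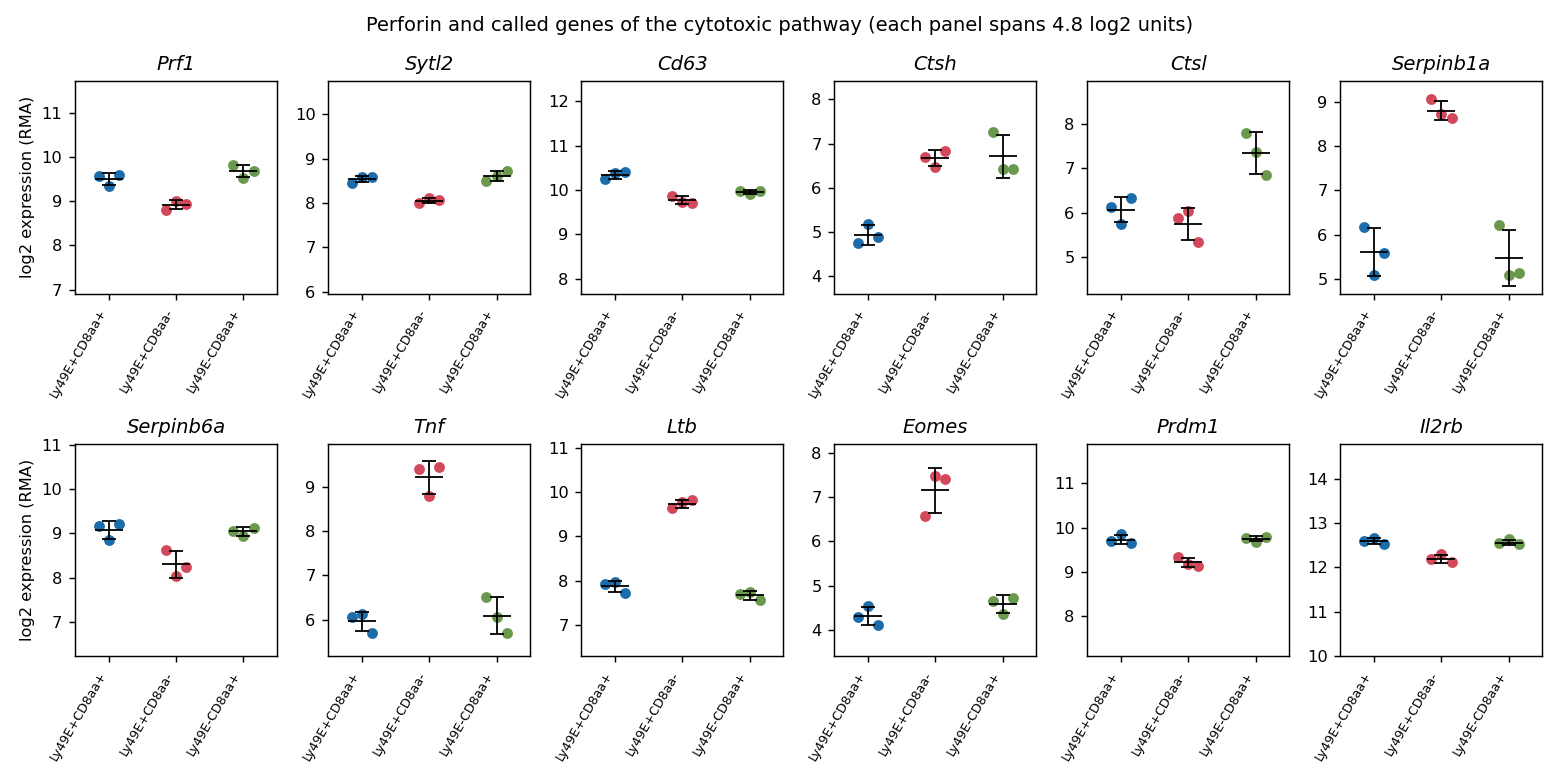
Log2 expression (RMA) of Prf1 and 11 called pathway genes on every array, by population, with mean and SD (n = 3) and each panel spanning the same number of log2 units. Prf1, Sytl2, Prdm1 and Il2rb are lowest in Ly49E+CD8aa- cells by 0.40 to 0.58 against Ly49E+CD8aa+, while Tnf, Ltb, Eomes and Serpinb1a are highest there.

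Relatives of the members by sequence were not called, with the exception of Mpeg1. Among 10 other proteases of the granzyme, chymase and neutrophil protease loci, limma called 0 in any comparison (0, 0 and 3 at an unadjusted p under 0.05 over Ly49E, over CD8aa and in Ly49E+CD8aa- against Ly49E-CD8aa+ cells). Gzmn, the other gene of the chromosome 14 cluster, was at 3.57 ± 0.111, 3.57 ± 0.0393 and 3.54 ± 0.0301 in Ly49E+CD8aa+ cells, Ly49E+CD8aa- cells and Ly49E-CD8aa+ cells. Of 6 relatives of perforin, Mpeg1, a perforin relative of phagocytes, was the 1 called, and its levels did not follow Prf1. It was at 5.63 ± 0.288 and 5.42 ± 0.245 in Ly49E+CD8aa+ and Ly49E+CD8aa- cells and at 7.37 ± 0.322 in Ly49E-CD8aa+ cells, which is -1.75 over Ly49E (limma adjusted p = 0.0183) and -1.95 in Ly49E+CD8aa- against Ly49E-CD8aa+ cells (0.000739). The call over Ly49E was lost without each of 6 arrays in turn, among them every Ly49E+CD8aa+ array (adjusted p up to 0.101), and with the 6 arrays of the comparison alone.

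Several dendritic cell markers moved with Mpeg1. The mean of 10 such markers was 6.88 to 7.32 on Ly49E-CD8aa+ arrays, 6.39 to 6.47 on Ly49E+CD8aa+ arrays and 6.44 to 6.51 on Ly49E+CD8aa- arrays. Siglech, Ly6d and Clec9a were called lower in Ly49E+CD8aa- cells than in Ly49E-CD8aa+ cells. Siglech and Ly6d were also called lower in Ly49E+CD8aa+ cells than in Ly49E-CD8aa+ cells. With the 6 arrays of that comparison alone limma called 0 genes, so both of these calls over Ly49E were lost. Ctsl, cathepsin L, had the same order, at 6.07 ± 0.291, 5.75 ± 0.361 and 7.34 ± 0.477, called at -1.59 in Ly49E+CD8aa- against Ly49E-CD8aa+ cells (limma adjusted p = 0.0137). That call was lost without Ly49E+CD8aa- replicate 3 or Ly49E-CD8aa+ replicate 2 (adjusted p up to 0.0594) and with the 6 arrays alone. Not all markers moved so. Itgax was at 9.48 ± 0.151, 9.86 ± 0.179 and 9.52 ± 0.265 in Ly49E+CD8aa+ cells, Ly49E+CD8aa- cells and Ly49E-CD8aa+ cells, without a call. Zbtb46 was at 5.49, 5.51 and 5.59 in that order. Clec9a was dim, with means of 3.89, 3.70 and 4.42, beside a 25th percentile of rows of 4.40 to 4.47. The part of dendritic cells in the Mpeg1 and Ctsl values was not tested.

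Mast cells, which also carry granule proteases, were looked for by 10 markers. Limma called 0 of them in any comparison (0, 0 and 2 at an unadjusted p under 0.05), and their mean was 4.45 to 4.75 over all arrays. Cma1, a chymase near the Gzmb cluster, was at 3.93 ± 0.0508, 3.87 ± 0.0555 and 3.88 ± 0.135. Markers of enterocytes averaged 8.28 to 9.27 over the arrays, and limma called 0 of 9 in each comparison (1 at an unadjusted p under 0.05 in each). Replicate 1 had the highest enterocyte mean of each population, at 9.20 in Ly49E+CD8aa+ cells, 9.27 in Ly49E+CD8aa- cells and 9.21 in Ly49E-CD8aa+ cells. The other arrays read 8.71 and 8.70, 8.75 and 8.35, and 8.45 and 8.28 in the same order. The part of this in the results was not tested beyond the fit with the replicate number as a block, in which Prf1 kept both calls. The mean of 9 T cell markers was 7.96 to 8.08, 8.09 to 8.34 and 7.90 to 8.00 on the Ly49E+CD8aa+, Ly49E+CD8aa- and Ly49E-CD8aa+ arrays. Of these, Cd3e was called in the direction of perforin, at 11.75 ± 0.0374 and 11.67 ± 0.0884 in the CD8aa+ populations and 10.70 ± 0.467 in Ly49E+CD8aa- cells, although the cells were sorted as CD3-. Cd28, a T cell costimulatory receptor, ran the other way, at 4.50 ± 0.046 and 4.68 ± 0.286 in the CD8aa+ populations with and without Ly49E and 7.04 ± 0.257 in Ly49E+CD8aa- cells. It was called in both comparisons with that population, at -2.54 over CD8aa (adjusted p = 2.88e-05) and 2.36 against Ly49E-CD8aa+ cells (adjusted p = 5.14e-05). Lat, an adaptor of T cell receptor signalling, was also higher in Ly49E+CD8aa- cells than in Ly49E-CD8aa+ cells, by 0.60 (adjusted p = 0.013), at 9.61 ± 0.112 against 9.01 ± 0.109. The sort markers Klra5 and Cd8a read lowest in the populations labelled negative for them. Klra5 was at 6.59 ± 0.982 in Ly49E-CD8aa+ cells, against 11.40 in Ly49E+CD8aa+ and 11.43 in Ly49E+CD8aa- cells. Cd8a was at 11.42 ± 0.143 in Ly49E+CD8aa- cells, against 12.55 in Ly49E+CD8aa+ and 12.58 in Ly49E-CD8aa+ cells. Cd8a RNA thus also read above the 75th percentile of rows (7.51 to 7.59) in the cells labelled CD8aa-.

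Genes beside the members on the chromosome, in the RefSeq gene order of GRCm38.p6, were read as a local comparison. Of 8 flanking genes that are no members (Gpx8, Esm1, Cdc34, Bsg, Adamts14, Pald1, Ctsg and Atp12a), Gpx8 was the 1 called. Gpx8, a glutathione peroxidase beside Gzma, was at 10.48 ± 0.0572 in Ly49E+CD8aa+ cells, 9.04 ± 0.181 in Ly49E+CD8aa- cells and 10.47 ± 0.239 in Ly49E-CD8aa+ cells. The difference over CD8aa was 1.44 (SE 0.128, limma adjusted p = 0.000379), while Gzma itself differed by 0.08. Adamts14 and Pald1, which flank Prf1, were at 5.77 ± 0.153 and 5.16 ± 0.163 in Ly49E+CD8aa+ cells, with differences over CD8aa of -0.01 and 0.12.

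The genes whose readings were most like a member's were ranked by Pearson r over the 9 arrays among 9968 genes, those above the median of row means, as a description with no test. For Prf1 they were Grk6 (0.959), Zfhx3 (0.957), Metrnl (0.952), Racgap1 (0.95) and Atp6v0a2 (0.946). For Gzmb they were Sytl2 (0.967), Gpr55 (0.958), Edem1 (0.955), Cyld (0.953) and Susd6 (0.951). For Gzma they were Cd200r1 (0.968), Oxr1 (0.945), Ptpn4 (0.943), Zfp882 (0.942) and Srgn (0.936). Sytl2 for Gzmb and Srgn for Gzma are also in the lists of granule genes above.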

How the data were processed

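The deposited matrix holds log2 values that the submitters' processing notes credit to RMA, 1 per row and array for 9 arrays, with a range of 1.84 to 13.84. The authors' RMA version, build and annotation were not given in the sources used here. Of 35556 rows, 21789 carried 1 gene symbol in the platform annotation, and 21698 of these matched a RefSeq gene of GRCm38.p6. The row with the highest mean stood for each of 999 genes with several rows, which left 19938 genes, with no filter on dim rows. Precision is limited by the number of arrays (median SE of a difference 0.0976).

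A mean per population was fitted with limma 3.58.1 in R 4.3.3 (2-sided, no block, Benjamini-Hochberg over all genes, threshold 0.05), and the code was tested on simulated data. Alternatives changed the arrays fitted, the filter on dim rows, the normalization, the variance model, the array weights, the rule for rows, the block and each array in turn. Promoter windows and their motifs were read from RefSeq with Python 3.11.15. Members, gene lists and tests were chosen with earlier results of these data known. Named genes were every member, up to 6 called genes of each list, the 5 genes most like Gzma, Gzmb and Prf1, and the nearest tested genes on the chromosome. Genes that were not called are named for their roles, chosen after their values were seen.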

Additional observations from a re-analysis of the deposited data

How the results depend on the processing

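Of 576 differences of the members under an alternative, 555 kept their direction and their side of the threshold. The Prf1 call over CD8aa passed in all 11 alternatives other than leaving out 1 array, the 6 arrays alone included (adjusted p 0.016 to 0.0457) and in 5 of 9 that left out 1. The Prf1 call in Ly49E+CD8aa- against Ly49E-CD8aa+ cells passed in all 20. Leaving out an array in turn, the members called over CD8aa ranged from 0 to 2 and in Ly49E+CD8aa- against Ly49E-CD8aa+ cells from 1 to 2. An intensity trend gave 2 in the latter, Prf1 and Gzmb (adjusted p = 0.0343).

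Over all genes, the calls over Ly49E went from 26 to 15 with the filter at the median, to 17 with the replicate block, to 0 with the 6 arrays alone (limma, 695 at an unadjusted p under 0.05), and from 5 to 32 without 1 array. Those in Ly49E+CD8aa- against Ly49E-CD8aa+ cells went from 429 to 263 with the 6 arrays alone, and those of the F test from 405 to between 248 and 332 without 1 array.

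Small differences changed sign. Over Ly49E, Gzma turned to -0.0061 after quantile normalization and -0.011 with array weights, Gzmd to 0.0038 after centring on medians, and Gzmf to -0.065 with array weights. Without 1 array, the ranges over Ly49E were -0.039 to 0.044 for Gzma, -0.06 to 0.0047 for Gzmb, -0.072 to 0.1 for Gzmf and -0.14 to 0.094 for Gzmm. Over CD8aa they were -0.12 to 0.00036 for Gzmd and -0.34 to 0.011 for Gzme, and in Ly49E+CD8aa- against Ly49E-CD8aa+ cells -0.014 to 0.11 for Gzmd. None of these passed a test, and the cause was not tested.

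The labels do not say that replicate numbers pair mice, so the numbers were not taken as pairs. Same-numbered arrays of different populations had correlations of their deviations from 0.13 to 0.22 for replicate 1 and from -0.06 to 0.12 for the others. Differently numbered arrays were not compared, so these values cannot settle whether the arrays are paired. With the replicate block Prf1 kept both calls, with adjusted p of 0.0386 and 0.011, and of the 36 pathway calls below 2 were lost, Ctsh over Ly49E (0.0795) and Cst7 (0.0651).

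Of 36 calls in the pathway lists, 23 passed in every alternative and 13 were lost in 1 or more.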
